A study of Mus musculus with 16 samples.

Results

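The growth factor receptors of myeloid cells were followed across 4 populations of sorted mouse cells: the CSF1 receptor (Csf1r), the receptor chains for GM-CSF (Csf2ra, Csf2rb) and IL-3 (Csf2rb2), the G-CSF receptor (Csf3r), the receptor kinases Flt3 and Kit, and Csf1 and Il34, which encode the CSF1R ligands. These 9 genes were picked by name, with earlier results of these data known, among the 50600 genes of the deposited count table. The study compared CD11c-positive cells that had entered the ischemic brain with microglia, to find genes that separate the populations. Polyadenylated RNA of 16 libraries was sequenced, 4 in each group, from male mice aged 13 to 14 weeks.

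The ischemic brain CD11c cells and the spleen CD11c cells came from the reporter line Tg(Itgax-Venus)1Mnz, in which regulatory sequence of Itgax, the gene of CD11c, drives a yellow fluorescent protein. The ischemic microglia and the control microglia came from CX3CR1CreERT2:Rosa26-tdT mice, in which an inducible Cre made under the control of Cx3cr1 switches on a red fluorescent protein. Cells were sorted by reporter fluorescence alone, with no antibody, after enzymatic dissociation. The brain CD11c cells and the ischemic microglia were from ischemic tissue, the control microglia from brain labelled as control. The sources used here give neither the interval between ischemia and sorting nor the state of the spleen donors, and they do not mention pooling of animals. Mouse line and cell population cannot be told apart in any comparison of CD11c cells with microglia. The labels do not say that the libraries of a group are separate animals, so the p-values measure only the spread between these libraries.

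Depth was 31.57 to 48.25 (units of 1e6 counts) per library. Levels are CPM, counts per 1e6 of the library total after TMM scaling, and log2 fold changes with their standard errors (SE) and adjusted p-values are from edgeR's quasi-likelihood test on all 16 libraries, called at an adjusted p under 0.05 over 16345 genes. The summed level of 8 microglia markers was 7744 to 8929 CPM in ischemic brain CD11c cells, 197 to 280.5 CPM in spleen CD11c cells, 18289 to 25700 CPM in ischemic microglia and 25809 to 31028 CPM in control microglia. The summed level of 8 conventional dendritic cell markers was 523 to 965 CPM in ischemic brain CD11c cells, 722 to 1010.3 CPM in spleen CD11c cells, 26.9 to 34.5 CPM in ischemic microglia and 45.7 to 85.1 CPM in control microglia. The brain CD11c libraries thus held both marker lists at levels between those of the other groups or close to the spleen. Replicates 1 and 2 of the ischemic brain CD11c cells, whose titles differ in form from those of replicates 3 and 4, stood apart from them. The 6 border macrophage markers summed to 727 and 589 CPM in replicates 1 and 2, against 184 and 206 CPM in replicates 3 and 4, and the dendritic markers to 523 and 608 CPM, against 921 and 965 CPM. Spleen CD11c libraries also held B cell markers, at 2229 to 2927 CPM summed over 5 genes, against 10.8 to 21.7 CPM in the other groups, and neutrophil markers, at 262 to 1075 CPM summed over 12 genes. The part of these cell types in the spleen values below was not tested. In bulk libraries, fewer cells of a type and less RNA per cell cannot be told apart.

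The receptors belong to separate families. CSF1R, FLT3 and KIT are receptor tyrosine kinases of the same class, activated when a dimeric ligand brings 2 receptors together. CSF1R binds CSF1 and IL-34 and is required for the survival of microglia and most tissue macrophages, FLT3 drives dendritic cell development, and KIT supports blood progenitors and mast cells. The GM-CSF, IL-3 and G-CSF receptors are cytokine receptors without a kinase of their own, which signal through JAK kinases and STAT factors. GM-CSF binds the alpha chain encoded by Csf2ra together with the common beta chain encoded by Csf2rb. Mice have a second beta chain gene next to it, Csf2rb2, whose product serves IL-3 only.

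Promoter sequence (250 bases before to 50 after the start, RefSeq, GRCm38.p6) was searched for 6 of the 9 genes. Csf1r was left out of the search, and no promoter sequence was at hand for Csf2rb and Il34. It is shown for Csf1, the member that changed most with ischemia in microglia, for Csf2ra and Csf2rb2, which were higher in both ischemic groups than in the control microglia, and for Flt3 and Kit, which separated CD11c cells from microglia. Capitals mark matches to a PU.1 core (GAGGAA), an NF-kB core (GGACTTTCC) or an interferon response element, searched on both strands, with no match overlapping another.
Csf1 (chr3:107760420-107760719, minus strand): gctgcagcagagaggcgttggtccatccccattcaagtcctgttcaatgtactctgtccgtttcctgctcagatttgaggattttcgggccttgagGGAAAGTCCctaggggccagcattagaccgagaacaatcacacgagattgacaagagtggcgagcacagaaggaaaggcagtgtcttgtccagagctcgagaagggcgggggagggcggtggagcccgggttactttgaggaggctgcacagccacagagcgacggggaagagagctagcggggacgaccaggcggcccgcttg
Csf2ra (chr19:61228369-61228668, minus strand): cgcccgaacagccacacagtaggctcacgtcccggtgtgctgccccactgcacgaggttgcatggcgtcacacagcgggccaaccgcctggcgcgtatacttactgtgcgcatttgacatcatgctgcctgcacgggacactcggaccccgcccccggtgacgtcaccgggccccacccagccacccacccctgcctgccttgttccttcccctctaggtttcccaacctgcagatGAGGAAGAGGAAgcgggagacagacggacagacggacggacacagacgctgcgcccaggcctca
Csf2rb2 (chr15:78305672-78305971, minus strand): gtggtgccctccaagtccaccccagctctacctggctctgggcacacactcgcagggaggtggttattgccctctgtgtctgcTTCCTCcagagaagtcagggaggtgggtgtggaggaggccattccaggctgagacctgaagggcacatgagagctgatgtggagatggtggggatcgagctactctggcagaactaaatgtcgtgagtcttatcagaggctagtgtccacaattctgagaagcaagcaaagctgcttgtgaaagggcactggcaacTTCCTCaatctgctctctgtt
Flt3 (chr5:147400440-147400739, minus strand): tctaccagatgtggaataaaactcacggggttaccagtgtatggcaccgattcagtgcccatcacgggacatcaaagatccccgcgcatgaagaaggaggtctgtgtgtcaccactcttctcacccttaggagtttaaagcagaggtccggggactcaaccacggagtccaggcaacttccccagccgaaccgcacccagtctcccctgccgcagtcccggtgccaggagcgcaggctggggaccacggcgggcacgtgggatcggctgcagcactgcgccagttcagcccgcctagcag
Kit (chr5:75574737-75575036, plus strand): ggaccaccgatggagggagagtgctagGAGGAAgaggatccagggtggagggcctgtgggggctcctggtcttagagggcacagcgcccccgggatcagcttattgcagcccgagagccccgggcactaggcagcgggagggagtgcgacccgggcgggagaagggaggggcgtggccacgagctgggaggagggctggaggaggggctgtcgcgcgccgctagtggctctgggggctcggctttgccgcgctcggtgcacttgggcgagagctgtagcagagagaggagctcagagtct
The Csf1 window held an NF-kB core match at -154 from the start, on the strand opposite to the letters printed. Such a match was found in 0.344% of 32851 RefSeq promoters of the same length. Csf2ra held 2 adjoining PU.1 core matches at -14 and -8, Csf2rb2 held matches at -167 and 30, and Kit held a match at -223. The promoter of Csf3r, which is not printed, had a PU.1 core match at -86. A PU.1 core match occurs in 28.3% of all these promoters and the interferon element in 3.44%. None of the 6 windows searched, which did not include Csf1r, held the interferon element, and the Flt3 window held none of the 3 motifs. A match describes these letters only and shows no binding.

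On GRCm38 with the GENCODE M21 annotation, Csf1r lies at chr18:61100598-61132149 on the plus strand, Csf2ra at chr19:61223957-61228429 on the minus strand and Csf3r at chr4:126024550-126044440 on the plus strand. Csf2rb (chr15:78325752-78353847, plus strand) and Csf2rb2 (chr15:78282507-78305721, minus strand) are neighbours that point away from each other. Flt3 (chr5:147330741-147400489, minus strand) and Kit (chr5:75574916-75656722, plus strand) share a chromosome, Csf1 lies at chr3:107741048-107760469 on the minus strand and Il34 at chr8:110741829-110805924 on the minus strand. Flt3 overlaps the antisense gene Gm26597, Il34 overlaps Gm15894 and Gm15895, and Csf1r overlaps the opposite-strand gene Hmgxb3. The library kit marks strand, but the sources used here do not state the strand setting of the counting, so reads of these overlapping pairs could not be assigned with certainty. Csf2rb and Csf2rb2 are near copies. Of the 50-base words in Csf2rb2 transcripts, 18.8% also occur in Csf2rb transcripts, and 17.1% the other way, so the division of counts between both genes is uncertain.

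**Figure D1:**
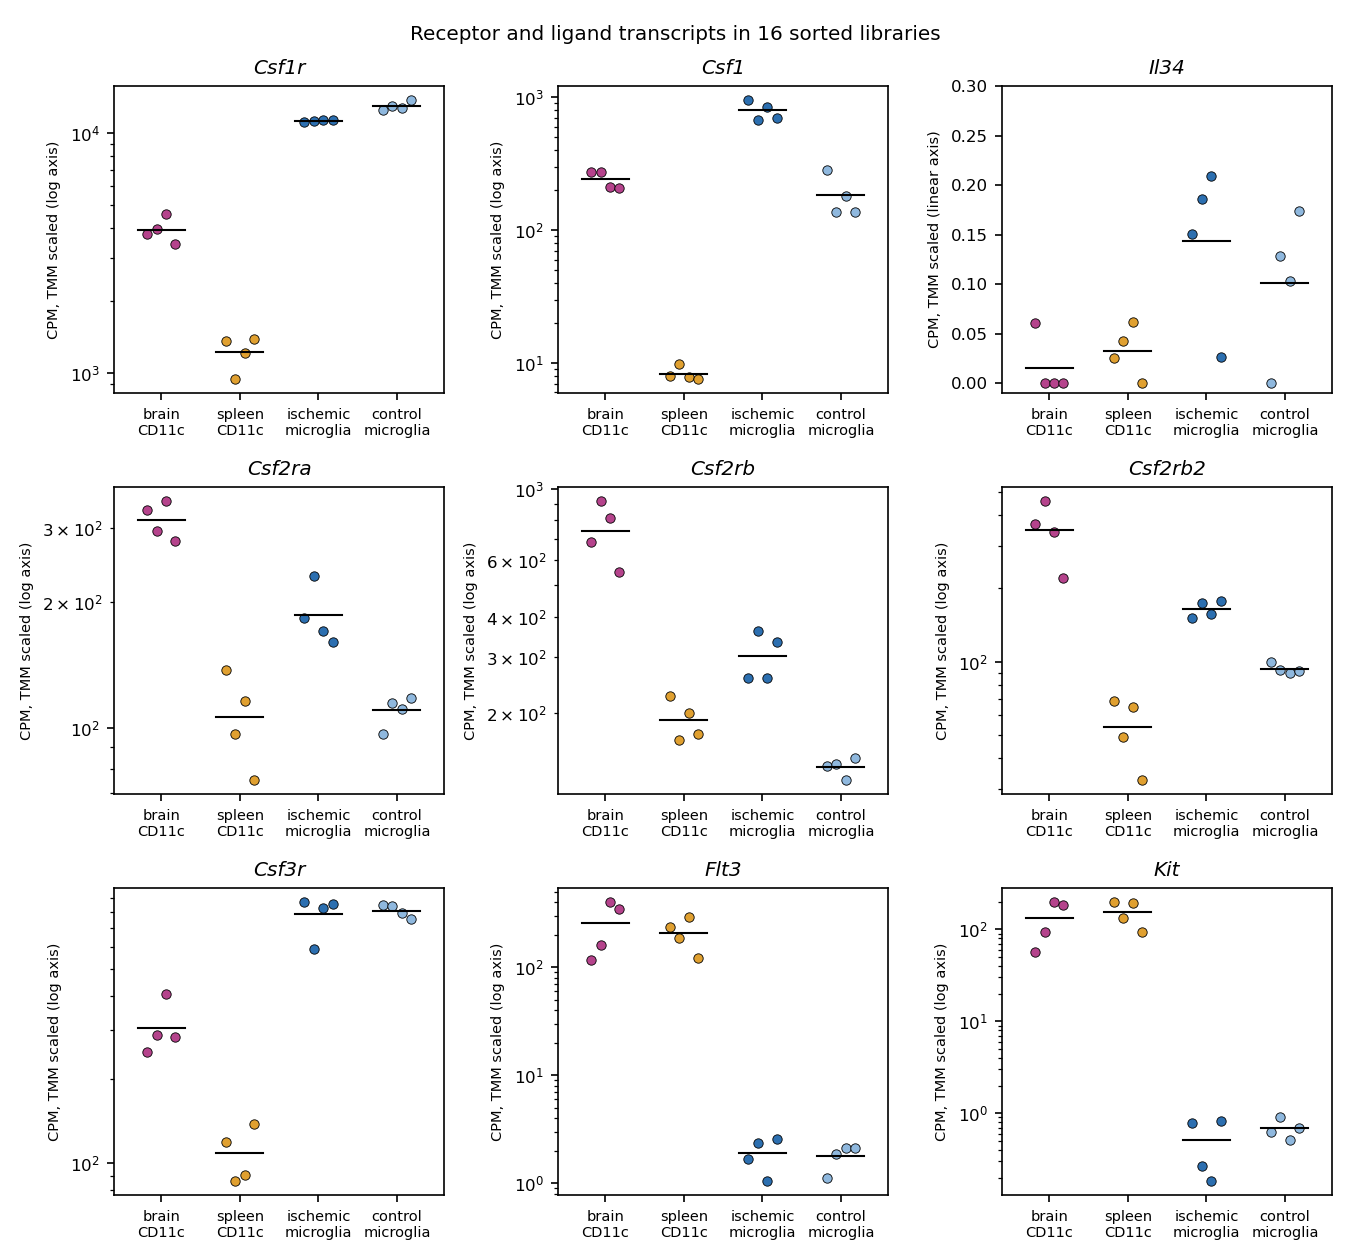
CPM of the 9 genes in each library (points, replicates 1 to 4 from left to right) with the group mean (line), on log axes except Il34, which is on a linear axis. Csf1r is highest in control microglia, the 3 GM-CSF and IL-3 receptor chains are highest in ischemic brain CD11c cells, and Flt3 and Kit stand at 56.6 CPM or more in the CD11c cells and at 2.54 CPM or less in microglia.

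Csf1r was highest in microglia, lower in ischemic brain CD11c cells and lowest in spleen CD11c cells. Its level was 3804, 3962, 4578 and 3456 CPM in ischemic brain CD11c cells, against 11078, 11173, 11312 and 11355 CPM in ischemic microglia. No library of either group reached the range of the other. The log2 fold change was -1.51 ± 0.137 (SE, n = 4 each, adjusted p = 2.87e-07), a level 2.84-fold higher in the ischemic microglia. The 8 microglia markers moved the same way, as all 8 were lower in the brain CD11c cells, with a median log2 fold change of -1.68, and their part in the Csf1r difference was not tested. Against the spleen CD11c cells, at 1351, 942, 1214 and 1383 CPM, the brain CD11c cells were higher in every library, with a log2 fold change of 1.69 ± 0.138 (adjusted p = 2.18e-08). All 8 microglia markers were also higher in the brain CD11c cells than in the spleen cells, with a median log2 fold change of 6.81, and the part of this too was not tested.

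Within microglia, Csf1r stood at 11078 to 11355 CPM after ischemia, against 12436, 12935, 12752 and 13735 CPM in control microglia. The libraries did not overlap, and the ischemic group was the tighter, with an SD of 128 CPM against 554 CPM. The log2 fold change of -0.21 ± 0.134 did not pass the test with TMM scaling (adjusted p = 0.246), whereas with scaling to library totals it was -0.35 and passed (adjusted p = 0.0430). Library totals also moved the median of all genes in this comparison, to -0.20. Of the 8 microglia markers 4 were called lower after ischemia, against 18% of all tested genes. The median log2 fold change over the marker list was -0.66. P2ry12, a purinergic receptor that marks resting microglia, averaged 2166 CPM in ischemic microglia and 4793 CPM in control microglia. The fitted difference of Csf1r was smaller than the median of the marker list, a contrast that was not tested.

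Csf1, the ligand, was the member that changed most with ischemia in microglia. It reached 955, 679, 849 and 701 CPM in ischemic microglia, against 283.5, 137, 181 and 138 CPM in control microglia. Every ischemic library lay above every control library, by a log2 fold change of 2.11 ± 0.210 (n = 4 each, adjusted p = 2.63e-06), or 4.31-fold. Astrocyte markers, from cells that also make CSF1, summed to 164 to 191 CPM over 6 genes in ischemic microglia and to 203 to 221 CPM in control microglia. Endothelial markers summed to 33.8 to 55.6 CPM over 6 genes in ischemic microglia and to 61.9 to 74.2 CPM in control microglia. The genes of these lists did not move together. In ischemic over control microglia the astrocyte genes Aldoc (log2 fold change -0.98) and Slc1a2 (-1.18) were lower and Gfap (2.15) higher, and the endothelial gene Pecam1 (-1.55) was lower and Kdr (1.02) higher. The other 3 astrocyte and 4 endothelial genes were not called, the medians of the lists were -0.79 and 0.25, and their part in the Csf1 difference was not tested.

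In ischemic brain CD11c cells Csf1 stood at 275, 273, 211 and 208 CPM, below every ischemic microglia library (log2 fold change -1.72 ± 0.207, adjusted p = 6.03e-06). In spleen CD11c cells it was at 7.96, 9.86, 7.86 and 7.57 CPM, and the brain CD11c cells were 29.1-fold higher (log2 fold change 4.86 ± 0.239, adjusted p = 5.14e-11), the widest difference of any member between both CD11c populations. Between the brain CD11c cells and the control microglia Csf1 did not differ by the test, with a log2 fold change of 0.39 ± 0.202 (adjusted p = 0.109) and overlapping libraries. That rested on control replicate 1, which at 283.5 CPM had the most Csf1 of its group. Without it the log2 fold change was 0.68 (adjusted p = 0.00202). The same library had the fewest border macrophage transcripts of its group, with 528 CPM against 983 to 1061 CPM. It was also lowest for conventional dendritic markers (45.7 against 82.9 to 85.1 CPM) and monocyte markers (18.1 against 30.6 to 36.4 CPM). Plasmacytoid dendritic markers were lowest there too (81.8 against 114 to 133 CPM). The part of these cell types in its Csf1 level was not tested.

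Il34, the other CSF1R ligand, which neurons supply in the brain, was close to absent. Its counts summed over the 4 libraries were 2 in ischemic brain CD11c cells, 6 in spleen CD11c cells, 22 in ischemic microglia and 16 in control microglia. No library had more than 8 counts, and the gene did not pass the filter on low counts and was not tested. A count of 0 in a library allows up to 3 counts, or 0.0617 to 0.0949 CPM at these depths, for counting error only. Neuron markers summed to 3.28 to 8.73 CPM over 7 genes in ischemic brain CD11c cells, 8.54 to 12.1 CPM in spleen CD11c cells, 20.4 to 34.2 CPM in ischemic microglia and 29.02 to 57.0 CPM in control microglia.

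The GM-CSF and IL-3 receptor chains shared a pattern, with the highest levels in ischemic brain CD11c cells and higher levels in ischemic than in control microglia. Csf2ra was at 329, 294, 347 and 278 CPM in ischemic brain CD11c cells, against 183, 230.1, 170.1 and 160.4 CPM in ischemic microglia. The groups did not overlap (log2 fold change 0.75 ± 0.158, adjusted p = 0.00129). Control microglia had 97.0, 115, 111 and 118 CPM, all below the ischemic microglia, which were higher by a log2 fold change of 0.75 ± 0.159 (adjusted p = 0.00162). The spleen CD11c cells, at 138, 96.7, 116 and 75.3 CPM, spanned the control microglia and did not differ from them by the test (log2 fold change -0.051 ± 0.158, adjusted p = 0.789). The brain CD11c cells exceeded every spleen library, by a log2 fold change of 1.55 ± 0.161 (adjusted p = 3.95e-07). Monocyte markers, from cells that also carry these receptors, summed to 1005 to 1308 CPM over 6 genes in ischemic brain CD11c cells, 527 to 614 CPM in spleen CD11c cells, 20.99 to 25.8 CPM in ischemic microglia and 18.1 to 36.4 CPM in control microglia. By gene, in ischemic over control microglia, 2 of the 6 monocyte genes were higher and 1 lower. The shares of all tested genes were 17.7% higher and 18% lower. The median log2 fold change of the monocyte genes was 2.03, against -0.051 over all tested genes. The part of monocytes in the levels of the 3 receptor chains was not tested.

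Csf2rb had 685, 917, 811 and 549.9 CPM in ischemic brain CD11c cells, against 257, 359.5, 256 and 332 CPM in ischemic microglia. The groups did not overlap, and the log2 fold change was 1.30 ± 0.159 (adjusted p = 7.44e-06). Spleen CD11c cells had 226, 165, 199.8 and 171 CPM, below every brain CD11c library (log2 fold change of brain over spleen 1.96 ± 0.163, adjusted p = 2.72e-08). Ischemic microglia also exceeded control microglia, at 137, 139, 124 and 145 CPM, by a log2 fold change of 1.15 ± 0.159 (adjusted p = 5.80e-05).

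Csf2rb2 had 367, 458, 340.5 and 221 CPM in ischemic brain CD11c cells, against 151, 174, 157 and 178 CPM in ischemic microglia and 99.9, 92.7, 90.0 and 91.3 CPM in control microglia. The 3 groups formed separate ranges in that order. The brain CD11c cells were above the ischemic microglia by a log2 fold change of 1.07 ± 0.211 (adjusted p = 7.38e-04) and the ischemic above the control microglia by 0.82 ± 0.210 (adjusted p = 0.00649). In the spleen CD11c cells, at 68.9, 49.0, 65.3 and 32.5 CPM, it was the lowest of all groups, and the brain CD11c cells were 6.43-fold higher (log2 fold change 2.68 ± 0.222, adjusted p = 2.90e-08).

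The near copies parted in the spleen. Against control microglia, spleen CD11c cells had higher Csf2rb (log2 fold change 0.49 ± 0.157, adjusted p = 0.0117) and lower Csf2rb2 (-0.79 ± 0.211, adjusted p = 0.00316). With the counts of both genes summed into 1 feature the difference was 0.091 and did not pass (adjusted p = 0.633). In this sum, opposite changes of the copies and an uneven division of reads between them cannot be told apart. The ratio of Csf2rb2 to Csf2rb within a library does not depend on scaling between libraries. It ranged from 0.402 to 0.536 in ischemic brain CD11c cells, 0.190 to 0.327 in spleen CD11c cells, 0.485 to 0.611 in ischemic microglia and 0.629 to 0.731 in control microglia. On the log2 scale the ratio differed by 0.75 between brain and spleen CD11c cells and by -0.32 between ischemic and control microglia, each with an exact two-sided permutation p of 0.0286, the smallest that 4 against 4 libraries can give. Adjusted over the 9 ratio tests run, of which 4 reached that smallest value, it is 0.0643, and no ratio passed. The ratio of Csf2ra to the summed beta chains was 0.214 to 0.361 in ischemic brain CD11c cells, 0.369 to 0.467 in spleen CD11c cells, 0.314 to 0.449 in ischemic microglia and 0.410 to 0.520 in control microglia. It differed by -0.56 on the log2 scale between brain and spleen CD11c cells (adjusted exact permutation p = 0.0643), by -0.44 between brain CD11c cells and ischemic microglia (0.0857) and by -0.27 between ischemic and control microglia (0.129).

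Csf3r, the G-CSF receptor best known from neutrophils, was a transcript of microglia in these libraries. It had 250.3, 289, 405 and 283 CPM in ischemic brain CD11c cells, against 869, 590.4, 827 and 854 CPM in ischemic microglia. The brain CD11c cells lay below every microglia library (log2 fold change -1.36 ± 0.177, adjusted p = 1.37e-05). Control microglia, at 851, 840.3, 792 and 754 CPM, overlapped the ischemic microglia, and the log2 fold change of -0.044 ± 0.173 did not pass (adjusted p = 0.879). Neutrophil markers summed to 2.07 to 3.33 CPM over 12 genes in ischemic microglia and 1.42 to 3.93 CPM in control microglia, with Ly6g, the antigen used to sort neutrophils, and Elane, the elastase of their granules, at 0 in all libraries of both groups. Of the 12 genes, 4 were at 0 in all control and 3 in all ischemic microglia libraries. By gene, in ischemic over control microglia, 2 were higher and none lower (median log2 fold change 1.56), against 17.7% and 18% of all tested genes. In brain CD11c cells over ischemic microglia 4 were higher and none lower (median 2.95), against 19.7% and 19.1% of all. The part of neutrophils in these Csf3r levels was not tested.

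In spleen CD11c cells Csf3r was lowest, at 119, 85.96, 90.1 and 138 CPM, and the brain CD11c cells were 2.83-fold higher (log2 fold change 1.50 ± 0.177, adjusted p = 1.74e-06). Within the spleen libraries, the neutrophil markers summed to 548, 262, 310.4 and 1075 CPM in replicates 1 to 4, the same order as Csf3r. In the brain CD11c libraries they summed to 30.6, 34.9, 10.2 and 11.5 CPM, and there the library with the most Csf3r had the fewest neutrophil transcripts. The part of neutrophils in the spleen level was not tested.

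Flt3 and Kit were transcripts of the CD11c cells. Flt3 had 116, 161, 404 and 350.7 CPM in ischemic brain CD11c cells, against 1.68, 2.34, 1.05 and 2.54 CPM in ischemic microglia, where 40 to 96 reads were counted per library. The log2 fold change was 7.08 ± 0.484 (n = 4 each, adjusted p = 2.44e-08). Control microglia had 1.12, 1.84, 2.12 and 2.11 CPM and did not differ from the ischemic microglia by the test (log2 fold change 0.077 ± 0.442, adjusted p = 0.923). Kit had 56.6, 94.4, 199 and 183 CPM in ischemic brain CD11c cells, against 0.777, 0.266, 0.183 and 0.820 CPM in ischemic microglia, with 7 to 31 reads per library there. Its log2 fold change of 8.01 ± 0.532 (adjusted p = 1.90e-08) was the widest of any member in that comparison. Control microglia had 24 to 36 Kit reads per library, and ischemic minus control microglia gave -0.41 ± 0.581 (adjusted p = 0.622). Both groups of microglia overlapped for both genes.

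Between the 2 CD11c populations neither gene passed the test. Spleen CD11c cells had 236, 185, 291 and 122 CPM of Flt3 and 197, 133, 196 and 94.6 CPM of Kit, within the range of the brain cells. The log2 fold change of brain over spleen was 0.31 ± 0.361 for Flt3 (adjusted p = 0.472) and -0.22 ± 0.363 for Kit (adjusted p = 0.611). Both results depended on which brain libraries were taken. With replicates 1 and 2 alone as the brain group, the log2 fold change was -0.59 for Flt3 (adjusted p = 0.141) and -1.04 for Kit (adjusted p = 0.0243). With replicates 3 and 4 alone it was 0.82 for Flt3 (adjusted p = 0.0304) and 0.27 for Kit (adjusted p = 0.479). Against ischemic microglia the same pairs of libraries gave 6.19 and 7.65 for Flt3 and 7.19 and 8.54 for Kit, all called.

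Between the pairs of brain libraries, more dendritic markers went with more Flt3 and Kit, but the order did not hold throughout. The brain libraries with 523 and 608 CPM of the 8 markers had 116 and 161 CPM of Flt3, and those with 921 and 965 CPM of the markers had 404 and 350.7 CPM. In the spleen, the library with the fewest dendritic transcripts, at 722 CPM, also had the least Flt3 and the least Kit. Brain replicate 4 had more dendritic transcripts than replicate 3 but less Flt3 and Kit. Spleen replicate 1 had more than replicate 3 but less Flt3. Other lists also separated the brain pairs. Oligodendrocyte markers summed to 143 and 127 CPM in replicates 1 and 2, against 304 and 357 CPM in replicates 3 and 4. T, NK and innate lymphoid markers fell, from 114 and 109 CPM to 54.5 and 52.6 CPM. The part of the share of dendritic cells in these values was not tested. Mast cell and basophil markers, from cells known for Kit, summed to 9.19 to 18.7 CPM over 10 genes in ischemic brain CD11c cells, 8.50 to 19.5 CPM in spleen CD11c cells, 1.52 to 4.00 CPM in ischemic microglia and 2.74 to 22.7 CPM in control microglia. Blood progenitor markers summed to 557.5 to 645 CPM over 8 genes in ischemic brain CD11c cells, 420.5 to 508 CPM in spleen CD11c cells, 634 to 719 CPM in ischemic microglia and 447 to 469 CPM in control microglia, with the defining gene Gata1 at 0 in all 4 brain CD11c libraries. Plasmacytoid dendritic cell markers summed to 186 to 289 CPM over 6 genes in ischemic brain CD11c cells, 299 to 343 CPM in spleen CD11c cells, 262 to 388 CPM in ischemic microglia and 81.8 to 133 CPM in control microglia. By gene, in brain CD11c cells over ischemic microglia, 3 of the 8 mast cell and basophil genes tested were higher and none lower (median log2 fold change 2.05). In the same comparison, 2 of the 6 progenitor genes tested were higher and 2 lower (median -0.23). Of 6 plasmacytoid genes, 3 were higher and 2 lower (median 2.21). Over all tested genes, 19.7% were higher and 19.1% lower in that comparison (median 0.00). The part of these cell types in the levels of Flt3 and Kit was not tested. Dpp4, which is 1 of the 8 dendritic markers, was also the gene most like Kit over the libraries.

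**Figure D2:**
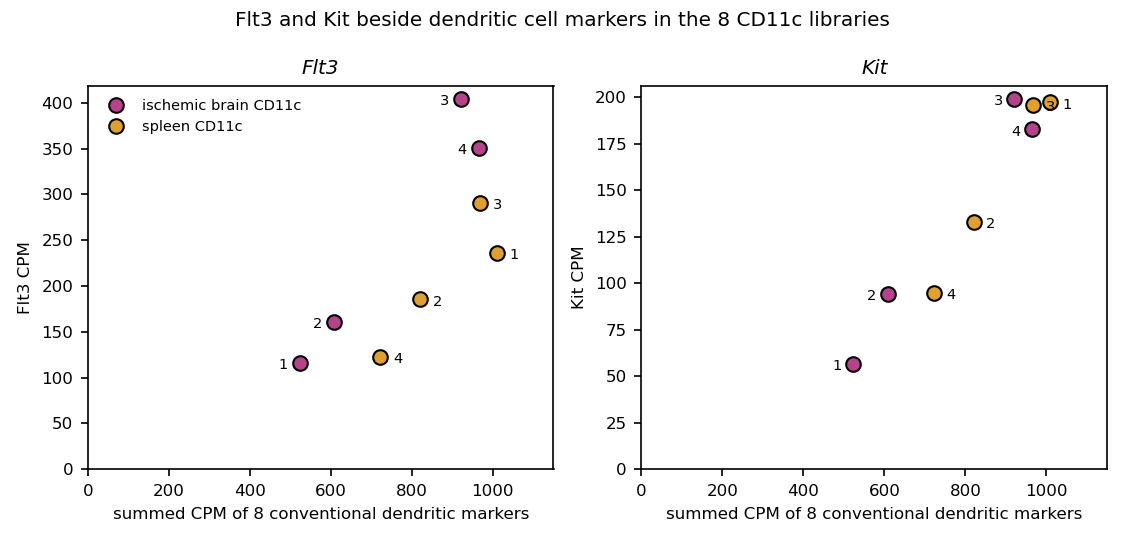
CPM of Flt3 (left) and Kit (right) in the 8 CD11c libraries against the summed CPM of 8 conventional dendritic markers, with replicate numbers beside the points and linear axes. Brain replicates 1 and 2 sit at 523 and 608 CPM of markers with 116 and 161 CPM of Flt3, and brain replicates 3 and 4 at 921 and 965 CPM of markers with 404 and 350.7 CPM of Flt3.

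Seen by comparison, 5 of the 8 tested members were higher in ischemic brain CD11c cells than in ischemic microglia, where 19.7% of all tested genes were higher, and 3 were lower, against 19.1% of all. Kit, Flt3, Csf2rb, Csf2rb2 and Csf2ra were the higher ones and Csf1, Csf1r and Csf3r the lower. The median log2 fold change was 0.91 over the members and 0.00 over all tested genes. In ischemic over control microglia 4 members were higher (Csf1, Csf2rb, Csf2rb2 and Csf2ra), against 17.7% of all genes, none was lower, against 18% of all, and the medians were 0.41 and -0.051. Between brain and spleen CD11c cells 6 members were higher in the brain, against 31.2% of all genes, none was lower, against 33% of all, and the medians were 1.62 and -0.036. With scaling to library totals, the numbers of all genes called higher and lower were 3964 and 2388 for brain CD11c cells over ischemic microglia, 2140 and 4242 for ischemic over control microglia and 3807 and 7113 for brain over spleen. With TMM they were 3213 and 3130, 2889 and 2945, and 5097 and 5390 in the same order. The number of members called with either scaling stayed within 1.5 times of the other. Because the members were chosen with earlier results of these data known, their counts cannot be read as an excess over all genes.

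**Figure D3:**
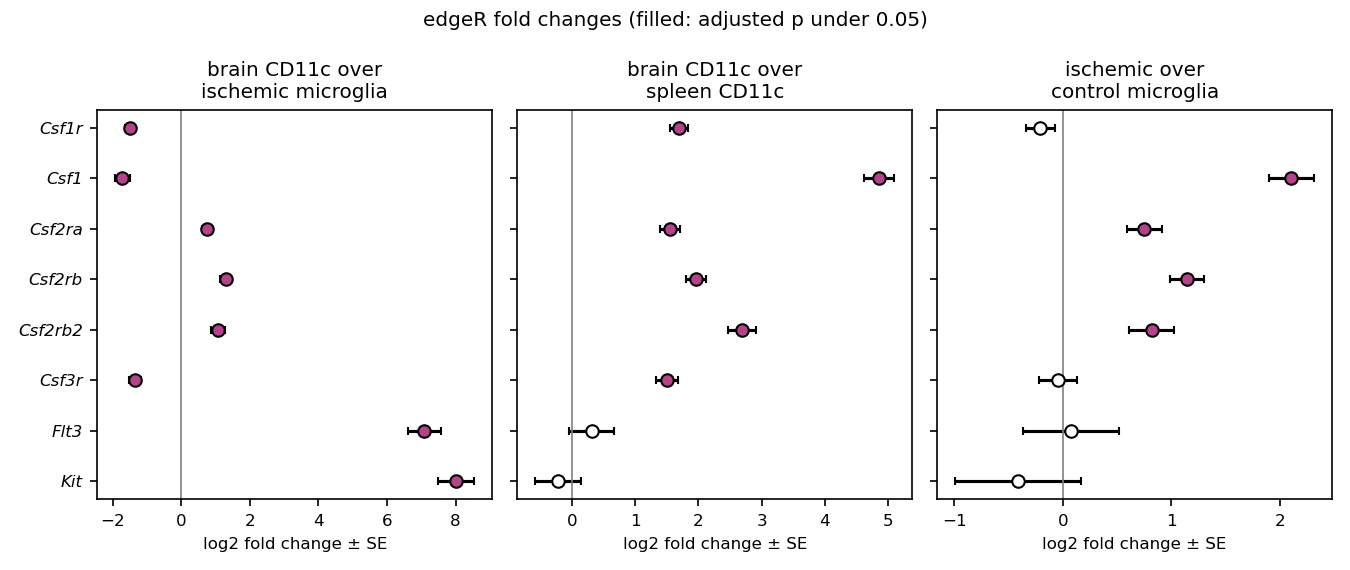
Log2 fold change of the 8 tested members (points) with its standard error (bars) in 3 comparisons, each panel with its own linear axis and the first-named group on top of the fold. Filled points passed an adjusted p under 0.05. Flt3 and Kit lead in the comparison of brain CD11c cells with ischemic microglia (7.08 and 8.01) and are open in the other panels, while Csf1 leads in both of those (4.86 and 2.11).

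The remaining comparisons share libraries with these. Ischemic brain CD11c cells against control microglia gave 5 members higher (29.3% of all genes) and 2 lower (29.6%), with Csf1 not called. Kit, Flt3 and Csf2rb led there with log2 fold changes of 7.60, 7.16 and 2.44, and Csf1r and Csf3r were lower with -1.71 and -1.40. Spleen CD11c cells against control microglia gave 3 higher (37.1% of all genes) and 4 lower (31.7%). Csf1 had a log2 fold change of -4.47 there, Csf1r -3.41 and Csf3r -2.90. Spleen CD11c cells against ischemic microglia gave 2 higher (37.2%), Kit and Flt3, and 6 lower (31.3%), of which Csf1 with -6.58 was the farthest. With library totals, Csf2rb was no longer called in that last comparison (log2 fold change -0.28, adjusted p = 0.124), and all genes split into 8429 higher and 3729 lower, against 6077 and 5118 with TMM. For spleen CD11c cells over control microglia that split was 7406 and 4184, against 6059 and 5186.

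Levels were set against each other per length of exon. The 7 receptor transcripts summed to 1109.5 ± 140.2 CPM per kb in ischemic brain CD11c cells, 368 ± 51.5 in spleen CD11c cells, 2304 ± 33.3 in ischemic microglia and 2547 ± 88.9 in control microglia (SD, n = 4 each). Csf1r made up 61.7% ± 1.14 of this sum in ischemic brain CD11c cells, 57.6% ± 5.39 in spleen CD11c cells, 84.4% ± 0.749 in ischemic microglia and 88.1% ± 0.741 in control microglia. It was thus the leading receptor transcript per length in all 4 groups. Its rank among 21764 protein-coding genes per kb was 33 to 55 in the brain CD11c libraries, 74 to 103 in the spleen, 18 to 24 in ischemic microglia and 9 to 10 in control microglia. Csf2ra, Csf2rb and Csf2rb2 held 9.85%, 9.15% and 6.59% of the sum in ischemic brain CD11c cells, and 10.1%, 7.13% and 3.09% in spleen CD11c cells. In ischemic microglia they held 2.81%, 1.80% and 1.51%, and in control microglia 1.51%, 0.734% and 0.776%. Flt3 held 3.75% ± 1.99 in ischemic brain and 9.18% ± 2.83 in spleen CD11c cells, and Kit 1.34% ± 0.690 and 4.72% ± 1.24. Csf3r held 7.62% ± 0.904 in ischemic brain CD11c cells, 8.20% ± 1.68 in spleen CD11c cells, 9.43% ± 1.50 in ischemic microglia and 8.82% ± 0.738 in control microglia.

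**Figure D4:**
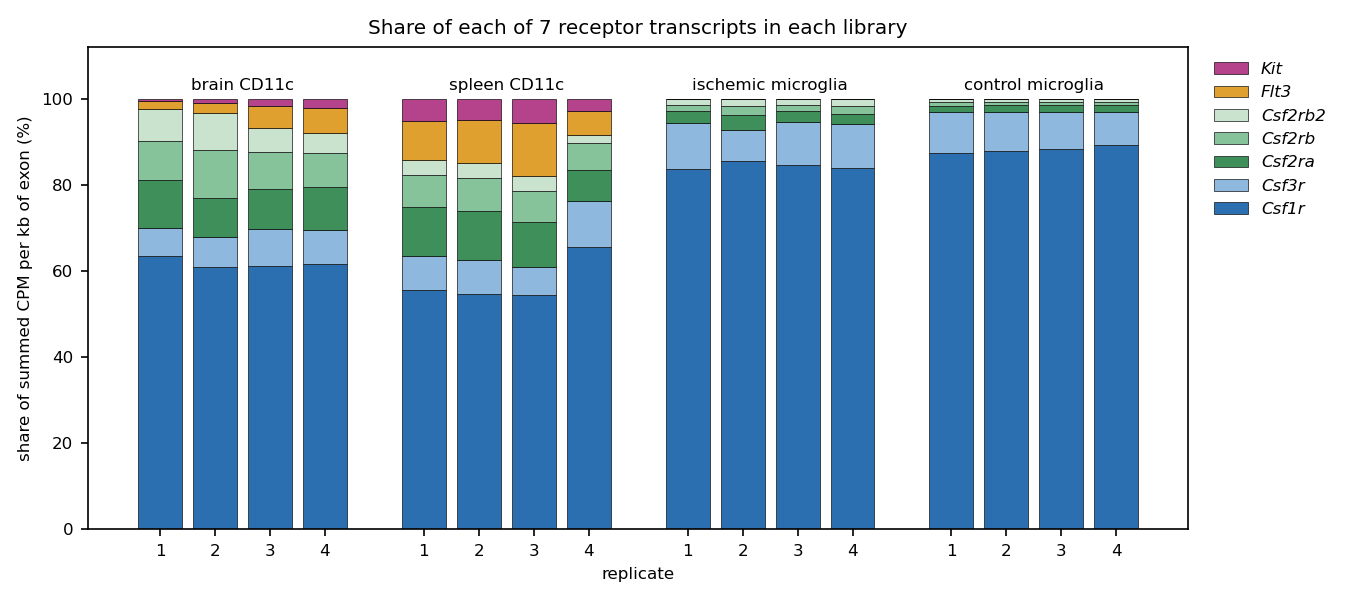
Share (%) of each of 7 receptor transcripts in their summed CPM per kb of exon, for each library (bars, replicates 1 to 4 in each group). Csf1r fills 83.8% to 89.1% of the sum in microglia and 54.5% to 65.6% in CD11c cells, where Csf2ra, Csf2rb, Csf2rb2, Flt3 and Kit take larger shares.

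The ratio of Flt3 to Csf1r within a library was 0.0305 to 0.101 in ischemic brain CD11c cells, 0.0884 to 0.239 in spleen CD11c cells, 9.36e-05 to 2.25e-04 in ischemic microglia and 9.14e-05 to 1.67e-04 in control microglia. The CD11c and microglia ranges were far apart. The log2 difference was 8.48 for brain CD11c cells over ischemic microglia (adjusted exact permutation p = 0.0643), 0.25 for ischemic over control microglia (0.514) and -1.51 for brain over spleen CD11c cells (0.0857).

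Few of the other ligands of these receptors were transcribed. Among 6 such genes, Il3 had no count in any library and Il5 did not pass the filter. Il5 averaged 0.586 CPM in ischemic brain CD11c cells, with 77 reads summed and 54 in the highest library. It had 2 reads over the spleen libraries and none in microglia. Csf2 and Csf3, which encode GM-CSF and G-CSF, averaged at most 0.239 and 0.553 CPM in any group and were called in none of the 3 main comparisons. Flt3l, the FLT3 ligand, averaged 5.85 CPM in ischemic brain CD11c cells, 21.5 CPM in spleen CD11c cells, 3.14 CPM in ischemic microglia and 5.44 CPM in control microglia. It was higher in brain CD11c cells than in ischemic microglia (log2 fold change 0.89), lower in ischemic than in control microglia (-0.79) and lower in brain than in spleen CD11c cells (-1.88). Kitl, the KIT ligand, averaged 13.6 CPM in ischemic brain CD11c cells and 30.6 CPM in ischemic microglia (log2 fold change -1.18) and was not called in the other main comparisons. Of the 6, 1 was thus higher and 1 lower in brain CD11c cells over ischemic microglia, with 1 lower in each of the others, and the medians over the 4 tested were -0.14, -0.45 and 0.18, against 0.00, -0.051 and -0.036 over all genes. The shares of all tested genes called higher were 19.7%, 17.7% and 31.2% in the same order, and called lower 19.1%, 18% and 33%.

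Of the partner alpha chains and related kinases, Il3ra, the IL-3 receptor alpha chain, moved with Csf2rb and Csf2rb2 in microglia. It averaged 19.0 CPM in ischemic and 4.53 CPM in control microglia (log2 fold change 2.07, adjusted p = 6.90e-07), the call that made 1 of 4 higher and none lower. In ischemic brain CD11c cells it averaged 23.6 CPM, against 13.1 CPM in the spleen (0.85). Il5ra, the IL-5 receptor alpha chain, averaged 15.4 CPM in spleen CD11c cells and had a single read over the 4 brain CD11c libraries. Pdgfra averaged 1.20 CPM in brain and 0.0249 CPM in spleen CD11c cells (5.53), so that 2 of 4 were higher and 1 lower in the brain cells. Counts of Pdgfra were low, with 4 to 88 reads (0.112 to 2.44 CPM) per brain CD11c library and 4 reads summed over the spleen libraries. None of the 4 was called between brain CD11c cells and ischemic microglia, where 19.7% of all tested genes were higher and 19.1% lower. The shares were 17.7% and 18% in ischemic over control microglia, and 31.2% and 33% in brain over spleen CD11c cells.

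The 20 genes of CSF1R signalling split in direction between brain CD11c cells and ischemic microglia, with 5 higher, 6 lower and a median of -0.16. Fyn (log2 fold change 1.74) and Syk (0.77), cytoplasmic kinases, were higher, and the kinase Src (-0.88) and the lipid phosphatase gene Inpp5d (-0.72) lower. In ischemic over control microglia 5 were higher and 1 lower, with a median of 0.13. The higher ones were led by Fyn (0.71), Tyrobp (0.65), which encodes the adaptor DAP12, Gab3 (0.56) and Shc1 (0.45), and the ubiquitin ligase gene Cbl was lower (-0.36). Between brain and spleen CD11c cells 12 were higher and 3 lower, with a median of 0.50. Src (2.32), Gab2 (2.01), Mapk3 (1.83) and Tyrobp (1.78) led, and Pik3cd (-0.61), Syk (-0.55) and Ptpn6 (-0.48) were lower. Over all tested genes, 19.7% were higher and 19.1% lower in brain CD11c cells than in ischemic microglia (median 0.00). For ischemic over control microglia the shares were 17.7% and 18% (median -0.051), and for brain over spleen CD11c cells 31.2% and 33% (-0.036).

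Of 14 genes of the JAK-STAT pathway, 6 were higher and 3 lower in brain CD11c cells than in ischemic microglia, with a median of 0.29. Jak2, the kinase bound to the beta chain, averaged 309 CPM in ischemic brain CD11c cells and 84.0 CPM in ischemic microglia (log2 fold change 1.88, adjusted p = 6.55e-07). Socs2 (1.74), Stat5a (1.54) and Pim1 (1.20) followed, while the lower ones included the feedback inhibitor gene Socs3 (-0.71) and Bcl2l1 (-0.41). In ischemic over control microglia 6 were higher and 3 lower, with a median of 0.31. The higher ones included Socs2 (1.45) and the kinase gene Pim1 (1.24), and Socs1 (-1.40), Stat5b (-0.68) and Stat5a (-0.35) were lower. Between brain and spleen CD11c cells 6 were again higher and 3 lower, with a median of 0.085. Socs3 (4.59), the survival gene Bcl2l1 (2.62), Cish (2.45) and Pim1 (2.23) were higher, and the lower ones included Socs2 (-1.39) and Stat5b (-0.47). The shares of all tested genes were 19.7% higher and 19.1% lower in brain CD11c cells over ischemic microglia. They were 17.7% and 18% in ischemic over control microglia, and 31.2% and 33% in brain over spleen CD11c cells.

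Of 21 transcription factors linked to these receptor genes, 2 were higher and 5 lower in brain CD11c cells than in ischemic microglia (median -0.16). Irf4, a dendritic cell factor, was higher (1.53), as was Etv6 (0.32), and the microglia factor Sall1 (-1.82), the early gene Egr1 (-1.66) and Irf8 (-0.63) were lower. Spi1, which encodes PU.1, averaged 384 CPM in ischemic brain CD11c cells and 398 CPM in ischemic microglia and was not called. In ischemic over control microglia 2 were higher, Id2 (1.67) and Etv6 (0.29), and 5 lower, among them Egr1 (-1.11), Sall1 (-0.96) and Batf3 (-0.93), with a median of -0.19. Between brain and spleen CD11c cells 13 were higher and 5 lower (median 1.15). Sall1 (10.07), Fos (5.23) and Cebpb (4.89) led, and Gata1, at 0 in every brain library and at 0.227 to 9.52 CPM in the spleen, Cebpe (-2.36), Irf4 (-1.92), Batf3 (-1.16) and Ikzf1 (-0.74) were lower. Among all tested genes, 19.7% were higher and 19.1% lower in brain CD11c cells over ischemic microglia. The shares were 17.7% and 18% in ischemic over control microglia, and 31.2% and 33% in brain over spleen CD11c cells.

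CSF1R, CSF1 and KIT are shed from the cell surface by ADAM proteases. Of 4 genes of this step, 3 were higher in ischemic than in control microglia and none lower, with a median of 0.45. Rhbdf2, which encodes the rhomboid protein that escorts ADAM17, averaged 205 CPM in ischemic and 48.8 CPM in control microglia (log2 fold change 2.07), and Adam17 (0.52) and Adam10 (0.38) were also higher. In brain CD11c cells over ischemic microglia 2 were lower, Adam10 (-0.50) and Adam17 (-0.33), and none higher (median -0.39). All 4 were higher in brain than in spleen CD11c cells (median 1.46), from Adam17 (1.29), Rhbdf2 (1.36) and Adam10 (1.55) to the protease inhibitor gene Timp3 (3.72). In ischemic over control microglia 17.7% of all tested genes were higher and 18% lower. The shares were 19.7% and 19.1% in brain CD11c cells over ischemic microglia, and 31.2% and 33% in brain over spleen CD11c cells.

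For each tested member, the genes with the most similar pattern over the 16 libraries were found among 9729 candidates, as the smallest root mean square difference of centred log2 CPM. Csf1r was closest to Glul, glutamine synthetase, with 0.19, then Abcg2 and Numb (0.22 each). Csf3r was closest to Plcl1 (0.19), then the hexokinase gene Hk2 and the inhibitory receptor gene Lair1 (0.24 each). Csf2ra was closest to Ifnar1, a chain of the type I interferon receptor (0.21), then Soat1 (0.23) and Sbno2 (0.25), and Csf2rb to B4galt5 (0.22), Mapkapk3 (0.25) and Rnf149 (0.27). Csf2rb2 had Slc27a1 (0.28), Zmynd15 and the ferritin gene Fth1 (0.31 each). Csf1 was closest to the cathepsin gene Ctsl (0.38), then the cytokine genes Tnf and Osm (0.53 each). For Flt3 and Kit the closest genes were less alike. Flt3 had the integrin gene Itgb7 (0.54), Gpr141 (0.58) and Klrk1 (0.64), and Kit had Dpp4 (0.49), Napsa (0.62) and Dock5 (0.71). These are descriptions over libraries that fall into 4 groups and carry no test.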

How the data were processed

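RNA of 16 libraries of sorted mouse cells was measured. The values are counts of reads per gene as deposited by the authors, who per the submitters' processing notes used FastQC 0.11.5 and STAR 2.5.3a with GRCm38. The sources used here do not name the counting program, its strand setting or the annotation. Libraries were grouped by their labels and numbered in accession order. Genes were kept with filterByExpr, counts scaled with TMM, and 6 contrasts tested with edgeR 4.0.16 (glmQLFit, robust, glmQLFTest, two-sided) under R 4.3.3, with Benjamini-Hochberg adjustment at 0.05. The code was tested on simulated data. Ratios used a pseudocount of 0.5 counts and exact permutation tests. Alternatives were DESeq2 1.42.0, limma-voom 3.58.1, other scalings and filters, fits of 2 groups, left-out libraries and summed copies. All 9 members are named, with up to 4 of the largest called changes per pathway list plus calls in the opposite direction, and the 3 genes most like each member, from candidates with at least 10 CPM in their highest group. Spi1, P2ry12, Gfap, Kdr and other marker genes, uncalled ligands and some further called genes of the lists were named after their values were seen. The members and lists were chosen with earlier results of these data known. A few genes of the lists are counted but not reported here by name. No 2 libraries of a group were alike within sampling noise.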

Additional observations from a re-analysis of the deposited data

Results flagged for a closer look

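Among 36 sets of 4 libraries (9 genes in 4 groups), 3 held a library that stood apart from the other three by Dixon's criterion, which chance alone meets in about 1 in 20 sets. Csf3r in ischemic microglia replicate 2 was 590.4 CPM, against 827 to 869 CPM in the other libraries of that group. Csf1 in spleen CD11c replicate 2 was 9.86 CPM, against 7.57 to 7.96 CPM in the others. Il34 in ischemic brain CD11c replicate 1 was 0.0608 CPM, which is 2 reads, against 0 in the others.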

How the results depend on the processing

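The number of members called stayed within 1.5 times of that reported in all 138 alternatives run. The 3 within-library ratios kept their direction and stayed on the same side of the threshold in all 81. For the threshold this carries little weight. The smallest permutation p that 4 against 4 libraries can give, 0.0286, was 0.0643 after adjustment over the 9 ratio tests. Single fold changes changed their call in 7 cases, all of which stand beside the result above. Csf2rb2 in spleen CD11c cells over control microglia turned to 0.091 with both copies summed, since the sum replaces the gene. With library totals 4 levels moved by more than 1 SD, namely Csf1r (10053 CPM) and Csf2rb2 (148 CPM) in ischemic microglia and Csf2rb (222 CPM) and Csf1 (9.70 CPM) in spleen CD11c cells. They also moved the median log2 fold change of all genes to -0.30 for brain over spleen CD11c cells, 0.34 for spleen CD11c cells over control microglia and 0.50 over ischemic microglia. No paired analysis was possible because the labels share a number between only 1 brain and 1 spleen library. Depth limits Il34 in all groups and Kit in microglia.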
